A study of Mus musculus with 2 samples.

Results

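Border-associated macrophages live in the meninges, around brain vessels and in the choroid plexus, outside the brain tissue proper where microglia sit. They take up proteins, lipids and debris from the fluids that bathe these borders, and in mice they are known by receptors such as Mrc1 (the mannose receptor CD206), Cd163 (the haptoglobin-haemoglobin receptor), Lyve1 (a hyaluronan receptor) and Folr2 (folate receptor beta). Monocyte-derived macrophages that enter an injured brain can switch on part of the same set, F13a1 and Mrc1 among them, so the markers are shared between origins.

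The cells described here were candidates for this type, chosen by their transcripts from sorted single cells of the ischemic brain. A candidate had at least 1 unique molecular identifier (UMI, 1 captured transcript) of Mrc1 and at least 2 of 7 markers detected (Cd163, Lyve1, Folr2, Cbr2, F13a1, Cd209f and Siglec1). It also had no UMI of Marco, under 10 UMIs per 10000 of 6 microglia genes together (P2ry12, Tmem119, Sparc, Gpr34, Olfml3 and Siglech) and under 20 per 10000 of S100a8 plus S100a9. The rule found 197 of 22960 cells. Replicate 1 held 160 of 15050 cells, or 1.06% (95% exact binomial interval 0.905% to 1.24%), and replicate 2 held 37 of 7910, or 0.468% (0.330% to 0.644%). These shares are set by the rule, the sort and the depth. After cells were thinned to 2000 UMIs the rule found 19 of 12795 and 7 of 7481 cells, or 0.148% and 0.0936%. The 2255 and 429 cells with too few UMIs for this were left out.

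All cells came from 1 group, macrophages of the ischemic brain after stroke, from mice of the strain Foxp3Egfp aged 6 to 8 weeks. This strain carries a fluorescent reporter at Foxp3, which marks regulatory T cells. Cells were sorted as CD45+CD11b+CD3-F4/80+ after a PBS flush, and 2 replicate libraries were made with a droplet kit that reads the 3' ends of transcripts. Barcoded cDNA of several stroke mice was combined for sequencing. The labels give neither the sex of the mice nor whether the replicates were separate animals. The p-values measure only how differences between classes of cells varied between these libraries, pooled over all classes of the fit. That spread may be technical. There was no uninjured group, so nothing here can be read as a response to stroke.

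Throughout, a pair of values gives replicate 1 and then replicate 2, and levels are UMIs of a gene per 1000000 UMIs summed over a class (CPM). The candidates summed to 1823249 and 439708 UMIs, with medians of 10481 and 9236 UMIs per cell. They were set against 2 classes of the same libraries. The first, called other macrophages, held 4519 and 561 cells that met neither the candidate rule nor the Marco, microglia, S100a8 plus S100a9 or monocyte cut-offs and had at least 2 genes of a macrophage list that included Cd68, Csf1r, Adgre1 and Fcgr1; their medians were 7041 and 8717 UMIs. The second, called microglia-like cells, held 8349 and 5869 cells, with medians of 4520 and 5595 UMIs. They had at least 10 UMIs per 10000 of the 6 microglia genes and under 20 per 10000 of S100a8 plus S100a9. The libraries shared 31 cell barcodes where 17.5 are due to chance, and 1 candidate barcode of replicate 2 was also a cell barcode of replicate 1. Of the candidates, 30 (18.8%) and 2 (5.41%) were among the barcodes with the highest Scrublet doublet scores, against 5.27% and 6.06% of the other macrophages.

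The markers held the label only in part. Mrc1, which the rule required, stood at 423 and 482 CPM in the candidates, 18.6 and 21.0 CPM in other macrophages and 13.6 and 7.20 CPM in microglia-like cells. Marco-positive cells, which the rule left out, held 313 and 768 CPM of Mrc1, the latter in 8 cells. Free RNA, measured in barcodes under 100 UMIs, held 27.8 and 16.3 CPM of Mrc1. In 68 of 160 and 14 of 37 candidates the Mrc1 call rested on a single UMI. F13a1, the A subunit of coagulation factor XIII, was detected in 74.4% and 94.6% of candidates, Folr2 in 70.0% and 35.1%, Cbr2 (a carbonyl reductase) in 45.6% and 78.4%, and Siglec1 (the sialic acid receptor CD169) in 41.9% and 45.9%. In microglia-like cells, which should lack them, the shares with a UMI were 9.53% and 4.34% for F13a1, 13.6% and 9.13% for Folr2, 3.45% and 2.39% for Cbr2 and 2.75% and 1.47% for Siglec1, at the lower depths given above.

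The markers most closely tied to border macrophages were absent from most candidates. Cd163 was detected in 11 and 6 candidates (6.88% and 16.2%), Cd209f (a C-type lectin) in 3 and 4, and Lyve1 in 2 and 2. Any of these 3 was found in 13 of 160 and 7 of 37. Their summed levels were still above those of the other classes: Cd163 reached 6.58 and 40.9 CPM in candidates, against 0.536 and 1.19 CPM in other macrophages. F13a1, by contrast, was at 227 and 534 CPM in candidates and at 289 and 316 CPM in cells chosen by monocyte transcripts (Ly6c2, Plac8 and Chil3 together at 10 or more per 10000). Because Cd163, Lyve1 and Cd209f were undetected in most of them, the cells are called Mrc1-positive candidates here, by their rule, and not by a cell type. All values of the 7 markers and of Mrc1 chose the cells and carry no test.

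**Figure D1:**
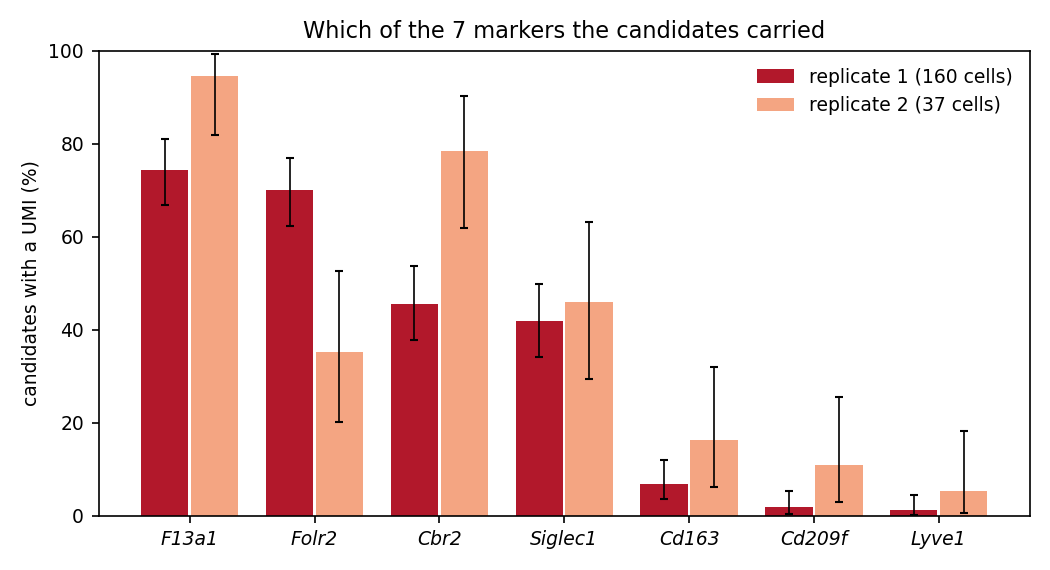
Share of Mrc1-positive candidates with at least 1 UMI of each of the 7 markers of the rule, per replicate library; bars are percentages of 160 and 37 cells, and lines are 95% exact binomial intervals, which cover counting error only. F13a1 and Folr2 led in replicate 1 and F13a1 and Cbr2 in replicate 2, while Cd163, Cd209f and Lyve1 stayed under 20% in both.

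The 2 libraries filled the rule with different markers. The commonest pair was Folr2 with F13a1 in replicate 1 (73 of 160 candidates) and Cbr2 with F13a1 in replicate 2 (28 of 37, against 12 for Folr2 with F13a1). Exactly 2 markers were found in 103 and 17 candidates, 3 in 48 and 11, 4 in 8 and 6, and 5 in 1 and 3. Cells just inside the marker threshold, with 2 of the 7, had 3471 and 3490 CPM of Pf4, and cells just outside it, 195 and 45 cells with 1 of the 7, had 3399 and 3407 CPM. Pf4 thus showed no step at the threshold. At the microglia threshold, 28 and 7 candidates had 5 to 10 microglia UMIs per 10000, and 32 and 8 cells that met the rest of the rule had 10 to 20. The Mrc1 level there was 240 and 659 CPM inside and 178 and 64.3 CPM outside.

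Pf4, the chemokine platelet factor 4, is expressed by border macrophages and was not used by the rule. It stood at 4081 and 4016 CPM in the candidates, 967 and 1173 CPM in other macrophages, 303 and 56.5 CPM in microglia-like cells and 734 and 386 CPM in free RNA. Cells chosen by monocyte transcripts held 2670 and 624 CPM of Pf4. Marco-positive cells held 1987 and 4699 CPM, the latter in 8 cells. A high level was thus not particular to the candidates in either library. Single candidates ranged from 0 to 507 Pf4 UMIs per 10000 in replicate 1 (median 16.6) and from 0 to 181 in replicate 2 (median 25.1). Pf4 was detected in 154 of 160 and 32 of 37 candidates. By number of markers, the level was highest in cells with 4 or more, 6722 and 5424 CPM in 9 and 9 cells.

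**Figure D2:**
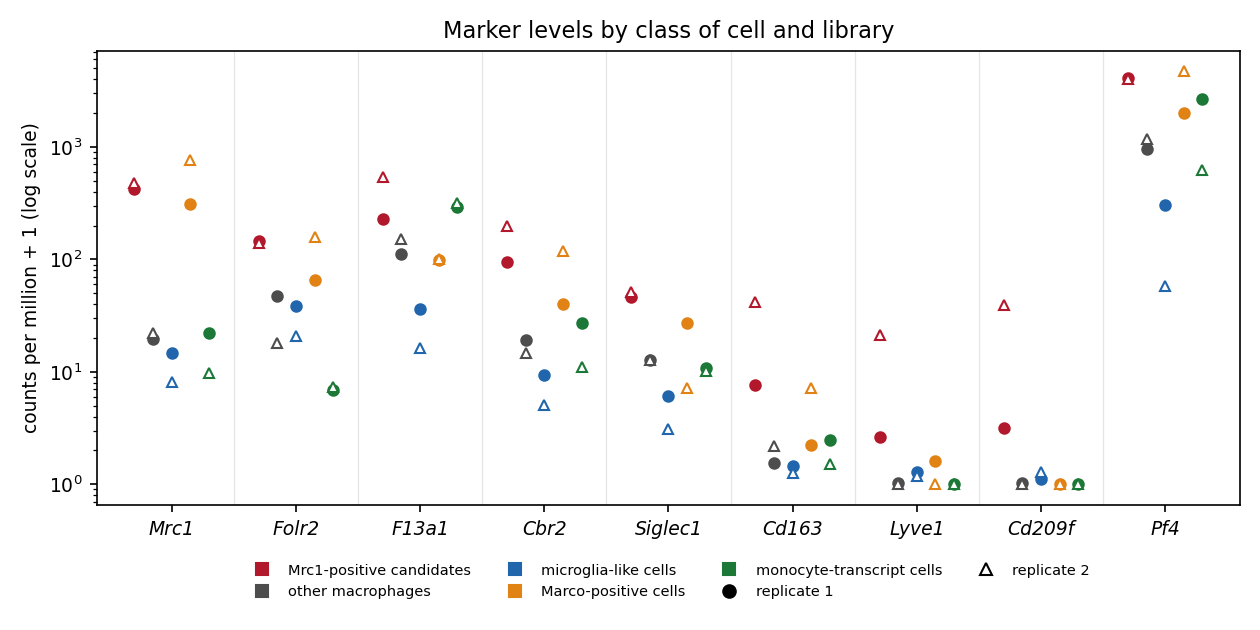
Level of Mrc1, of the 7 markers of the rule and of Pf4 in CPM over summed UMIs (CPM + 1, log scale) by class of cell; filled circles are replicate 1 and open triangles replicate 2. The candidates lie far above other macrophages for Mrc1 by the rule's own choice, and Pf4 follows at 4081 and 4016 CPM against 967 and 1173 CPM.

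The candidates of each library were not 1 kind of cell, and one split was marked by Xist, the RNA that coats the inactive X chromosome of female cells. An Xist UMI was found in 39 of 160 (24.4%) and 4 of 37 (10.8%) candidates, against 0.929% and 0.178% of other macrophages and 0.371% and 0.153% of microglia-like cells. The Xist level was 138 and 56.9 CPM in candidates, 5.50 and 1.19 CPM in other macrophages, 1.60 and 0.458 CPM in microglia-like cells and 6.59 and 2.89 CPM in free RNA. Of all cells, 201 (1.34%) and 20 (0.253%) carried an Xist UMI, so most cells of both libraries lacked it. The Marco-positive cells, which the rule left out, carried it in 72 of 146 and 3 of 8.

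Transcripts of the Y chromosome showed the opposite pattern. Ddx3y, Uty, Eif2s3y and Kdm5d summed to 17.3 and 44.5 CPM in candidates with an Xist UMI and to 98.7 and 106 CPM in candidates without one. In replicate 1, 33 candidates carried Xist only, 72 carried a Y-linked UMI only, 6 carried both and 49 neither; in replicate 2 the counts were 2, 19, 2 and 14. Whether cells of mice of both sexes were present was not tested, since the labels give no sex.

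Candidates with Xist differed from the rest in genes of many kinds. Apoe, the main lipid carrier of brain macrophages, was at 8479 and 1525 CPM in candidates with an Xist UMI and 65819 and 47293 CPM in those without. In single cells of replicate 1, the Apoe level ran from 1.05 to 563 UMIs per 10000 with Xist (median 15.3), against 1.61 to 2693 without it (median 597). Apoe was under 200 UMIs per 10000 in 33 of 39 and 3 of 4 candidates with Xist, and in 30 of 121 and 7 of 33 without. The ranges overlapped, and candidates low in Apoe without an Xist UMI mostly carried a Y-linked one (21 of 30 and 5 of 7). Arg1, the arginase of repair-type macrophages, was at 1.73 and 189 CPM with Xist and 489 and 1195 CPM without. C1qa, a subunit of complement C1q, was at 1021 and 612 CPM with Xist and 4141 and 4427 CPM without.

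**Figure D3:**
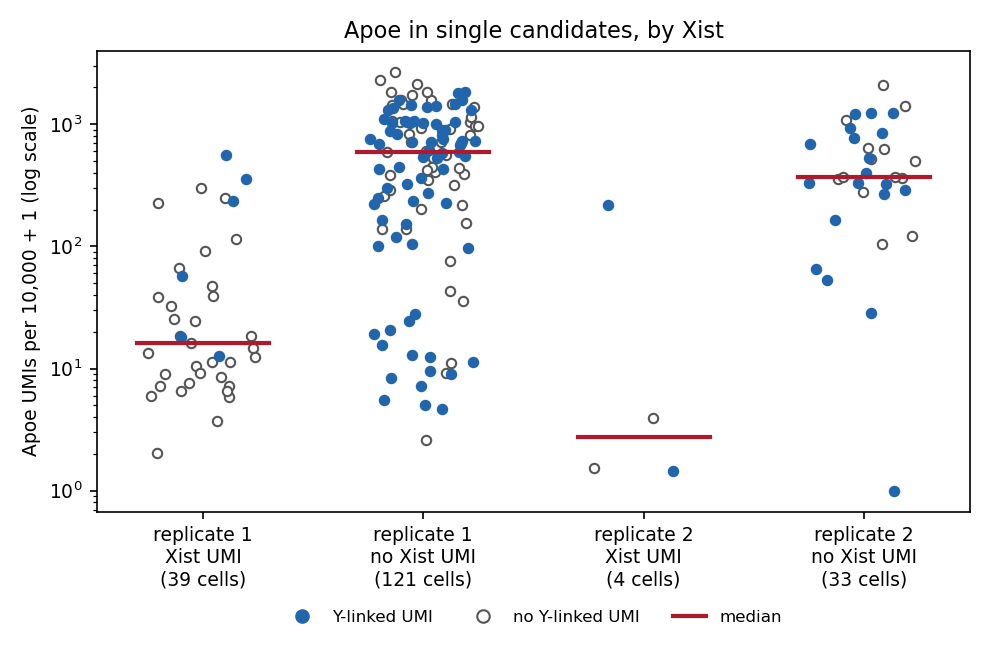
Apoe UMIs per 10000 (+ 1, log scale) in each Mrc1-positive candidate, by library and by whether the cell held an Xist UMI; each point is 1 cell, blue where it held a UMI of Ddx3y, Uty, Eif2s3y or Kdm5d, and red lines are medians. In replicate 1 the 39 cells with Xist have a median of 15.3 and the 121 without it a median of 597, and both groups spread over more than 1 order of magnitude.

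Other genes lower in candidates with Xist in both libraries were Ctsh (cathepsin H), at 154 and 145 CPM with Xist and 671 and 632 CPM without, Cd63, Rgs1 and Cxcl2. Those higher included Ly6a, at 310 and 467 CPM with Xist and 113 and 171 CPM without, Clec4d, Glrx, S100a6, Fpr1 and Il1rn, the interleukin-1 receptor antagonist. Cell cycle transcripts went along: at least 2 of 8 cycling markers were detected in 89.7% and 75.0% of candidates with Xist and in 30.6% and 21.2% without. At 2000 UMIs per cell the shares were 59.0% and 0% with Xist, and 16.7% and 6.06% without, so the difference held in replicate 1 and could not be read in the 4 cells of replicate 2. These cells were split by a transcript measured in them, so the differences are a description of the libraries with no test. The counts of all genes called are therefore given below with and without cells that carried Xist, as are the values of the genes described most closely.

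A second mixture concerned the 20 candidates with Cd163, Lyve1 or Cd209f. More than 1 of these 3 genes was found in 2 cells of replicate 1 and 4 of replicate 2. In replicate 2 the 6 such cells without Xist were rich in Mrc1 (1710 CPM, against 321 CPM in the 27 without any of the 3 genes), Stab1 (a scavenger receptor, 1283 against 290 CPM), Maf (a macrophage transcription factor, 1399 against 315 CPM) and C1qa (10494 against 3946 CPM). They held no UMI of Arg1, Spp1 or Gpnmb, genes of the lipid-laden and repair states of injured tissue, whose levels in the other 27 were 1290, 6195 and 475 CPM. H2-Aa, an MHC class II gene, was at 4392 CPM in these 6 cells and at 574 CPM in the other 27. The sum behind these 6 cells was small, at a median of 4396.5 UMIs per cell.

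The 9 such cells of replicate 1 without Xist did not show this profile. Their Mrc1 level was 246 CPM, against 359 CPM in the 112 without any of the 3 genes, Stab1 410 against 434 CPM, and Arg1 797 against 466 CPM. Spp1 was at 6939 against 13075 CPM. In 6 of the 9, and in 9 of all 13 such cells of replicate 1, the evidence was 1 UMI of 1 gene. In replicate 2 the cell with the most Cd209f held 8 UMIs of it, 4 of Lyve1, 9 of Mrc1 and 9 of Folr2, with none of Arg1, Spp1 or H2-Aa. Others of the 6 cells of that library held 45, 25 and 43 UMIs of H2-Aa.

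Antigen presentation genes also varied among the candidates. H2-Aa, H2-Ab1, H2-Eb1 and Cd74, by which MHC class II was measured in single cells, together summed to 0 UMIs in 121 of 160 and 17 of 37 candidates. They reached 10 or more UMIs per 10000 in 5 and 9. The 9 of replicate 2 included the cells with Cd163, Lyve1 or Cd209f that held H2-Aa. H2-Aa, the alpha chain of I-A, was at 26.3 and 730 CPM in candidates and 106 and 2022 CPM in other macrophages, so the library with more H2-Aa was the same in both classes. In replicate 2 the 9 candidates high in MHC class II had 4914 CPM of H2-Aa and 384 CPM of Ccr2, the receptor of inflammatory monocytes, against 91.0 CPM of Ccr2 in the 17 with none. The 11 in between had 375 CPM of Ccr2 with 6.46 CPM of H2-Aa, so Ccr2 did not follow H2-Aa in that library. In replicate 1 Ccr2 was highest in the 5 candidates high in MHC class II, at 224 CPM with 917 CPM of H2-Aa. It was at 39.8 CPM in the 121 with none and 44.6 CPM in the 34 in between. Arg1 was found in 36 and 13 candidates, whose Pf4 level was 8221 and 6830 CPM, against 3092 and 2696 CPM in the 124 and 24 without it. Mrc1 ran the other way, at 225 and 192 CPM with Arg1 and 470 and 618 CPM without. The monocyte cut-off was met by 5 and 8 candidates.

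The candidates held little RNA of T, NK and mast cells, while monocyte and cycling transcripts were above those of other macrophages. The 12 microglia markers summed to 1339 and 1340 CPM, against 1882 and 1782 CPM in other macrophages and 11137 and 17129 CPM in microglia-like cells. These 12 include the 6 genes by which the classes were chosen. The 10 neutrophil markers summed to 133 and 134 CPM against 169 and 96.3 CPM in other macrophages, with Ltf, Retnlg and Ly6g at 0 in the candidates. The 8 T and NK cell markers summed to 1.10 and 0 CPM with 6 of 8 at 0, and all 4 mast cell markers were at 0. The 5 B cell markers summed to 21.9 and 79.6 CPM in candidates and 17.5 and 50.4 CPM in other macrophages, with Cd79a and Ms4a1 among those at 0 in the candidates. Monocyte markers were at 298 and 1521 CPM in candidates and 153 and 630 CPM in other macrophages. Ly6c2, Plac8 and Chil3 are among them, and other macrophages but not candidates were chosen to be under their cut-off. Part of the monocyte difference is thus set by how the classes were chosen. The 8 cycling markers were at 1169 and 532 CPM in candidates, against 315 and 400 CPM in other macrophages. The part of monocyte transcripts and of cycling in the comparisons was followed by leaving those cells out.

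Against other macrophages, the candidates were higher in the chemokines Ccl12, Ccl8 and Ccl6 and in the border macrophage genes Igfbp4, Maf and Dab2, and lower in Cd9 and in cathepsin H. Of these, Ccl12, Ccl8 and Igfbp4 were also called without Xist-carrying cells. Of 11985 genes tested, edgeR called 46 higher (0.384%) and 30 lower (0.25%) at an adjusted p of 0.05. Genes that the rule used, and genes that defined the other classes, were left out of this test. Scaling by RLE factors in place of TMM gave 81 higher and 20 lower and moved the median log2 fold change of all genes by about 0.1 (to -0.01 with RLE, against -0.12 with TMM). The calls did not survive every setting: without cells that had at least 2 cycling markers edgeR called 0 (158 higher and 470 lower at an unadjusted p of 0.05), and against the other macrophages that held an Mrc1 UMI it called 0 (196 and 328).

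Without cells that carried Xist, edgeR called 5 genes higher (0.0418%) and 0 lower (459 and 704 at an unadjusted p of 0.05; DESeq2, run on all cells, called 222 and 119). The 5 were Ccl12, Ccl8, Igfbp4, Snx2 and Nov, all among the 76 called with those cells, and 75 of the 76 kept their sign. Snx2 and Nov are named after their values were seen. Nov, a matricellular protein, came from 44 UMIs in 3 candidates of replicate 1, and no candidate of replicate 2 held it. Snx2, a sorting nexin of endosomes, was at 286 and 337 CPM in candidates and 79.2 and 105 CPM in other macrophages. Leaving out the library term ended every call, with 580 higher and 867 lower at an unadjusted p of 0.05.

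Igfbp4, a binding protein of insulin-like growth factors and a border macrophage gene outside the rule, was at 140 and 75.0 CPM in candidates and 9.61 and 8.70 CPM in other macrophages. The candidates of both libraries were higher, by a log2 fold change of 3.27 ± 0.38 (edgeR, SE, adjusted p = 0.0079), and by 3.40 ± 0.35 without Xist-carrying cells (edgeR adjusted p = 0.00361). The adjusted p passed 0.05 in 12 of 15 alternatives. Its highest value, 0.95, came against other macrophages that held an Mrc1 UMI, where the log2 fold change was 0.95 ± 0.42. Igfbp4 was found in 67 of 160 and 12 of 37 candidates, so most of them held none at this depth. Microglia-like cells had 43.1 and 67.5 CPM of it.

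The monocyte-attracting chemokines Ccl12 and Ccl8 lie close together on chromosome 11 (GRCm38; Ccl12 at 82101845 to 82103400 and Ccl8 at 82115185 to 82116799, both on the plus strand). Ccl12 was at 695 and 1394 CPM in candidates and 78.3 and 104 CPM in other macrophages, a log2 fold change of 3.20 ± 0.41 (edgeR adjusted p = 0.0103), and of 2.90 ± 0.29 without Xist-carrying cells (edgeR adjusted p = 0.00361). Its adjusted p ran up to 0.415 over the alternatives. Microglia-like cells held 710 and 693 CPM of Ccl12, close to the candidates in replicate 1 and below them in replicate 2, and free RNA held 455 and 585 CPM, above the other macrophages. Ccl8 was at 65.8 and 93.2 CPM in candidates and 13.2 and 2.77 CPM in other macrophages, a log2 fold change of 2.87 ± 0.51 (edgeR adjusted p = 0.0296), and of 3.08 ± 0.45 without Xist-carrying cells (edgeR adjusted p = 0.046, and up to 0.95 over the alternatives). Its UMIs came from 22 and 5 candidates, so a minority of cells carried the difference. Its level in candidates with Xist was 8.67 and 156 CPM, against 92.3 and 77.2 CPM in those without, so the libraries differed in direction. The value of replicate 2 came from the 2 candidates with both Xist and a Y-linked UMI (500 CPM). The 2 with Xist only were at 0 CPM.

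Ccl6, a chemokine gene also on chromosome 11, was at 1419 and 1813 CPM in candidates and 140 and 292 CPM in other macrophages, with a log2 fold change of 2.61 ± 0.41 (edgeR adjusted p = 0.0193). Without Xist-carrying cells it was 2.35 ± 0.38 with an edgeR adjusted p of 0.0701. Ccl7 was at 1132 and 3018 CPM in candidates and 145 and 562 CPM in other macrophages, but its adjusted p was 0.0887 by edgeR. Of the 20 chemokines tested, 3 were higher, 0 lower and 17 not called, with a median log2 fold change of -0.30 beside -0.12 for all genes.

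**Figure D4:**
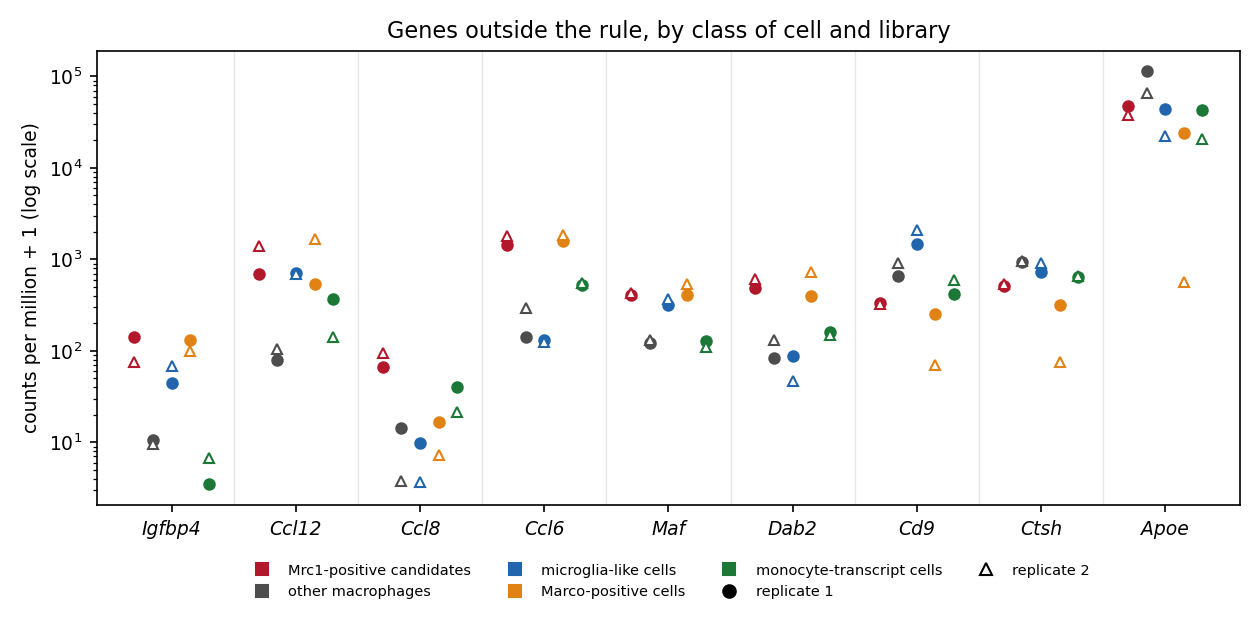
Levels (CPM + 1, log scale) of 9 genes that the rule did not use, by class of cell; filled circles are replicate 1 and open triangles replicate 2. Igfbp4, Ccl8, Ccl6 and Dab2 are above other macrophages in both libraries, Ccl12 is level with microglia-like cells in replicate 1 and above them in replicate 2, and Cd9, Ctsh and Apoe are below other macrophages.

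Of 21 border macrophage genes outside the rule, Maf, Igfbp4 and Dab2 were higher, 0 were lower, and the median log2 fold change was 0.31. Maf was at 410 and 425 CPM in candidates and 120 and 131 CPM in other macrophages (log2 fold change 1.39 ± 0.26, edgeR adjusted p = 0.0393). Dab2, an endocytic adaptor, was at 480 and 609 CPM in candidates and 82.2 and 131 CPM in other macrophages (2.02 ± 0.31 on the log2 scale, edgeR adjusted p = 0.0181). Both were higher in the 2 libraries, and both missed the threshold without Xist-carrying cells (edgeR adjusted p = 0.211 for Maf and 0.134 for Dab2). Stab1 (0.31 ± 0.32 on the log2 scale), Ms4a7 (-0.60 ± 0.51) and Pf4 (1.56 ± 0.57, edgeR adjusted p = 0.196) did not pass.

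Among the other genes called were receptors of the cell surface. Clec4a1, a C-type lectin, was at 173 and 105 CPM in candidates and 14.0 and 38.0 CPM in other macrophages (edgeR adjusted p = 0.0393). Tfrc, the transferrin receptor, was at 57.0 and 36.4 CPM in candidates and 9.19 and 2.77 CPM in other macrophages (edgeR adjusted p = 0.0281), the 1 of 11 heme and iron genes called. Named after their values were seen, Fpr1 and Fpr2, the formyl peptide receptors, were higher by 3.28 ± 0.47 and 2.97 ± 0.41 on the log2 scale (edgeR adjusted p = 0.0157 for both). Without Xist-carrying cells edgeR called none of these 4, with an adjusted p of 0.239 for Clec4a1, 0.273 for Tfrc, 0.14 for Fpr1 and 0.211 for Fpr2. Against other macrophages that held an Mrc1 UMI, the log2 fold change was 0.37 ± 0.32 for Clec4a1, 0.69 ± 0.50 for Tfrc, 0.43 ± 0.54 for Fpr1 and 0.82 ± 0.58 for Fpr2. An Fpr1 UMI was found in 20.6% and 8.11% of candidates, against 1.33% and 1.43% of other macrophages. Sqle and Cyp51, enzymes of cholesterol synthesis, were also called, Sqle from 23 and 2 UMIs in candidates and Cyp51 from 40 and 8. Mki67, the proliferation antigen, was at 75.7 and 56.9 CPM in candidates and 20.3 and 16.0 CPM in other macrophages (edgeR adjusted p = 0.017). Sqle, Cyp51 and Mki67 were not called without Xist-carrying cells (edgeR adjusted p = 0.211, 0.203 and 0.211).

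The genes lower in the candidates included Cd9 and Fabp4, known from lipid-laden macrophages, and the lysosomal protease Ctsh. Cd9, a tetraspanin, was at 336 and 323 CPM in candidates and 663 and 915 CPM in other macrophages (-1.56 ± 0.24 on the log2 scale, edgeR adjusted p = 0.0193). Fabp4, a fatty acid binding protein, was the other member called of the 15 genes tested in the list of alternative activation and lipid-laden state, whose median log2 fold change was -0.82. Ctsh was at 507 and 532 CPM in candidates and 934 and 968 CPM in other macrophages (-1.21 ± 0.17, edgeR adjusted p = 0.0157), and of the 16 lysosome genes none was called, with a median of -0.57. Ccrl2 (a chemerin-binding receptor), Gdf15 (a stress-induced growth factor), Abi3, Ypel3, Gngt2 and Crlf2 were called lower with log2 fold changes of -1.50 to -1.25. None of the 30 passed without Xist-carrying cells, where Cd9 was at -1.22 ± 0.26 and Ctsh at -0.83 ± 0.18 on the log2 scale (edgeR adjusted p = 0.211 for both).

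Apoe was at 47674 and 37941 CPM in candidates, against 113456 and 65432 CPM in other macrophages. This difference did not pass (-1.30 ± 0.42 on the log2 scale, edgeR adjusted p = 0.149). In simulated counts of this comparison the same fit recovered 0% of 200 changes of 2-fold and 61.5% of 200 changes of 4-fold, so a gene that did not pass is not shown to be unchanged. Gpnmb, Spp1, Arg1, Hmox1 and Ccr2 did not pass either, with log2 fold changes of -1.32 ± 0.43, -0.21 ± 0.46, 0.92 ± 0.60, 0.01 ± 0.45 and 0.91 ± 0.61. The 9 MHC class II genes had a median log2 fold change of -1.77 with none called. The 14 interferon genes had a median of 0.64 with none called. Complement, inflammatory mediators, growth factors, monocyte genes, immediate early genes, microglia genes outside the rule, scavenging, and glycolysis and hypoxia had no call in either direction.

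**Figure D5:**
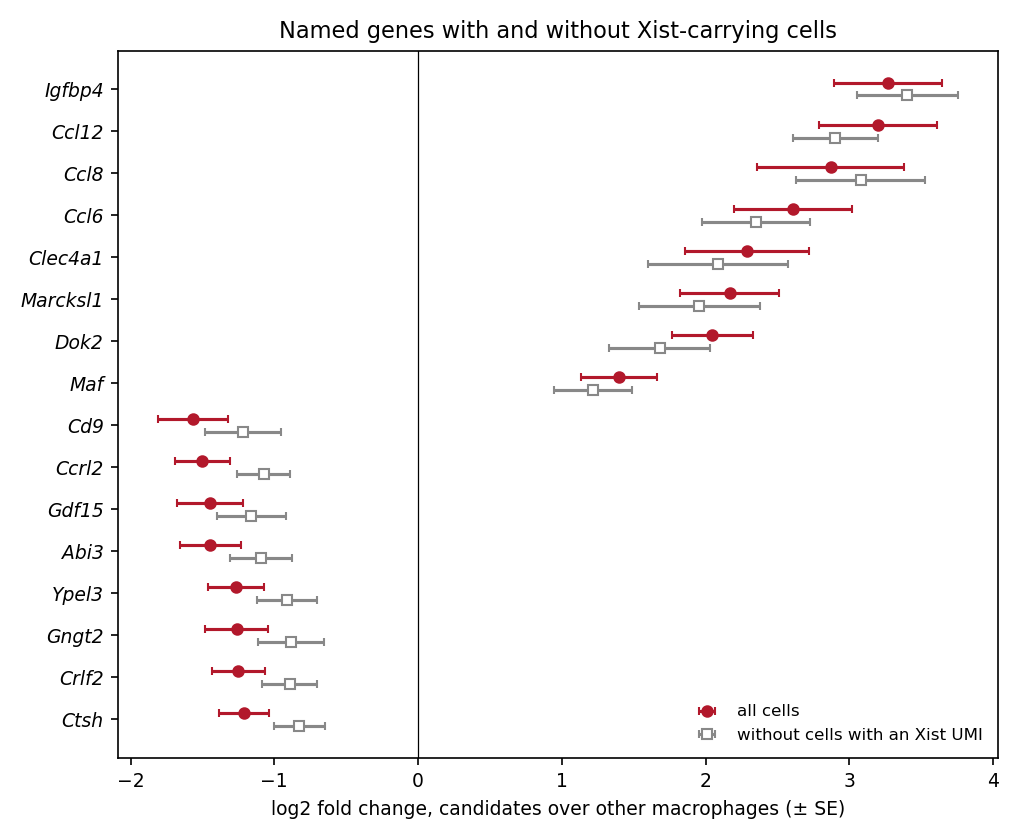
Log2 fold change of candidates over other macrophages from edgeR (points, with SE as lines), over all cells (filled) and without cells that held an Xist UMI (open). Drawn are the 8 genes named as higher except Xist, then Maf, and the 8 genes named as lower. Xist was also called higher (4.44 ± 0.48, edgeR adjusted p = 0.0079). Igfbp4, Ccl12 and Ccl8 lie between 2.87 and 3.40 and pass the test in both; the 8 lower genes lie closer to 0 without those cells and none passes.

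Against microglia-like cells the candidates differed across much of the transcriptome. They were lower in microglia genes and higher in Pf4, Arg1 and genes of heme and iron handling. edgeR called 1173 genes higher (9.79%) and 1764 lower (14.7%) of 11985. The median log2 fold change of all genes was -0.19. RLE factors gave 1451 higher and 1545 lower, and DESeq2 gave 1508 higher and 1401 lower. Which direction had more calls thus depended on the method. Microglia genes left out of the rule were lower in 13 of 13 cases, with a median log2 fold change of -3.27. Sall1, a transcription factor of microglia identity, was at 7.13 and 2.27 CPM in candidates and 107 and 122 CPM in microglia-like cells. Slc2a5 (a fructose transporter) and Lag3, at 1.65 and 3.29 CPM in candidates of replicate 1, had no UMI in those of replicate 2.

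Border macrophage genes outside the rule went mostly up, with 11 of 21 higher, 2 lower (Lilra5 and Hpgd) and a median log2 fold change of 1.57. Pf4 led them at 4.96 ± 0.66 on the log2 scale (edgeR adjusted p = 0.000346), 3.72 and 6.11 in the single libraries. Dab2 was higher by 3.03 ± 0.32, Ednrb (an endothelin receptor) by 3.89 ± 0.54, Ms4a7 by 2.98 ± 0.55 and Stab1 by 1.05 ± 0.32 (edgeR adjusted p = 8.22e-05, 0.000435, 0.0027 and 0.0344). Maf was not called at 0.25 ± 0.26, and microglia-like cells held 318 and 365 CPM of it. Igfbp4 passed narrowly at 1.04 ± 0.35 (edgeR adjusted p = 0.0473), missed the threshold without Xist-carrying cells, and changed sign to -0.19 without cycling cells, but was 2.5 ± 0.35 once microglia-like barcodes with fibroblast or mural transcripts were left out (edgeR adjusted p = 0.000418). Without Xist-carrying cells 10 of the 21 were higher and 1 lower.

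Of the 11 heme and iron genes 7 were higher and none lower (Hmox1, Blvra, Blvrb, Slc48a1, Ftl1, Fth1 and Tfrc). Hmox1, the heme oxygenase, was at 2208 and 3214 CPM in candidates and 709 and 413 CPM in microglia-like cells (edgeR adjusted p = 0.00494). Without Xist-carrying cells the count was also 7 of 11, where edgeR called 7.35% of all genes higher and 10.3% lower. Chemokines split: Pf4, Ccl2, Ccl7, Ccl8, Ccl9 and Ccl6 were higher and Ccl3, Ccl4 and Ccl5 lower, of 20. Ccl7 was at 1132 and 3018 CPM in candidates and 77.0 and 71.6 CPM in microglia-like cells, while Ccl12 was not called (0.55 ± 0.38, edgeR adjusted p = 0.316).

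Alternative activation and lipid-laden genes had 8 of 15 higher, among them Arg1, Spp1, Gpnmb, Fabp4, Fabp5 and Lgals3, and 2 lower, Cd9 and Trem2. Arg1 was at 335 and 989 CPM in candidates and 44.7 and 19.6 CPM in microglia-like cells (4.26 ± 0.68 on the log2 scale, edgeR adjusted p = 0.00111), though only 36 and 13 candidates carried it. Monocyte genes had 7 of 12 higher and none lower, with S100a4 at 1010 and 1360 CPM in candidates and 78.1 and 84.5 CPM in microglia-like cells, and Ccr2 at 45.5 and 234 CPM against 10.8 and 17.2 CPM. Monocyte marker sums are given above, and without the 13 candidates that met the monocyte cut-off edgeR still called 1070 genes higher and 1656 lower. Cd36 and Msr1, scavenger receptors, were higher by 4.43 ± 0.46 and 3.11 ± 0.34 on the log2 scale (edgeR adjusted p = 8e-05 and 0.000103), in a scavenging list with 4 of 15 higher and 3 lower (Mertk, Scarb2 and Pros1).

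Lower calls prevailed among inflammatory and early-response genes. Of 15 inflammatory mediators 7 were lower, among them Il1a, Tnf and Nlrp3, and 3 higher (Il10, Il1rn and Clec4e). Tnf was at 50.5 and 95.5 CPM in candidates and 357 and 281 CPM in microglia-like cells (edgeR adjusted p = 0.000211). Il10 came from few UMIs, at 7.13 and 25.0 CPM in candidates and 2.27 and 0.642 CPM in microglia-like cells (edgeR adjusted p = 0.0159). Of 19 immediate early genes 13 were lower and none higher, Egr1 at 56.5 and 173 CPM against 686 and 556 CPM. Such genes also respond to tissue dissociation, whose part was not tested. Complement had 5 of 11 lower, C1qa, C1qb and C1qc among them, and 2 higher (Cfp and C5ar1).

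Of 21 transcription factors, 4 were higher (Nr1h3, Runx3, Tfec and Pparg) and 10 lower, among them Sall1, Sall3, Mef2c, Irf8 and Id3. Glycolysis and hypoxia genes had 8 of 17 higher, Ldha, Pgk1 and Vegfa among them, and 2 lower. Interferon genes had 6 of 14 higher and none lower, against 3 without Xist-carrying cells. MHC class II was divided, with 2 of 9 higher (Clec10a and Klra2, which the list holds as antigen-presenting cell genes) and 2 lower (H2-DMa and H2-DMb1), and growth factors and matrix with 5 of 18 higher and 2 lower. Lysosome genes had 2 of 16 higher (Ctsc and Lipa) and 4 lower.

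Without Xist-carrying cells the values named above for Pf4, Dab2, Ednrb, Ms4a7, Stab1, Hmox1, Ccl7, Arg1, S100a4, Ccr2, Cd36, Msr1, Tnf, Il10, Egr1 and Sall1 over microglia-like cells kept their sign and passed, with an edgeR adjusted p of up to 0.0272. Some list counts were smaller: 11 of 13 microglia genes and 9 of 19 immediate early genes were lower, 5 of 15 inflammatory mediators were lower and 2 higher, and 6 of 17 glycolysis and hypoxia genes were higher. Chemokines had 8 of 20 higher and 3 lower.

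A few of the strongest values over microglia-like cells belonged to that class's own mixture. It held 274 and 114 barcodes with at least 3 UMIs of fibroblast or mural genes, which carried 99.4% and 99.7% of the class's UMIs of those genes. Col3a1 was at 3.29 and 0 CPM in candidates and 140 and 210 CPM in microglia-like cells. Without those barcodes the log2 fold change of Col3a1 was 2.30 and that of Col18a1 was 1.08, neither called, against -5.98 and -6.20 with them. The calls over the remaining microglia-like cells were 1245 higher (10.5%) and 1815 lower (15.3%).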

How the data were processed

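Single cells of 1 group were sequenced in 2 replicate libraries. The deposited files are unnormalized UMI counts for every barcode of the kit; per the file headers, Cell Ranger made them. Tools listed in the submitters' processing notes are Cell Ranger 4.0.0, STAR 2.5.1b and Seurat 4. How Cell Ranger was set to count reads that match several genes is not stated there. The libraries held 101893367 and 62850768 UMIs. Barcodes with at least 1000 UMIs, 500 genes and at most 10% mitochondrial UMIs were kept. No doublets were removed in the main comparison. Scrublet (scanpy 1.11.5) marked 1426 and 0 cells by its own threshold, so an alternative removed the 1812 and 501 top-scoring barcodes.

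UMIs were summed per library and class. Classes of 50 or more cells per library entered 1 edgeR 4.0.16 quasi-likelihood fit (TMM, filterByExpr, library as a block, 6 classes, 12 sums, 5 residual degrees of freedom, Benjamini-Hochberg adjustment). The candidates, with 37 cells in replicate 2, were kept although the design asked for 50 cells; the Marco-positive cells, with 8, were left out. The 25 genes that defined classes and the mitochondrial genes were removed before adjustment. The library block was used because both sides of a comparison come from the same library; deviations of same-library sums correlated at r = 0.236 and 0.138 over 11787 genes. Tested on simulated counts for candidates over other macrophages, the fit recovered 0% of 200 changes of 2-fold and 61.5% of 200 changes of 4-fold. At 4-fold, 9 of 132 calls (6.82%) were false. The simulation used the same fixed spread for every gene, equal rates in all classes apart from the changes, and no library effect. DESeq2 1.42.0 was an alternative. Intervals are 95% exact binomial and cover counting error only. Coordinates are from GENCODE vM21 (GRCm38). Levels are not scaled per transcript length and are compared within a gene.

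Named were, in each comparison, the 8 genes with the largest positive and the 8 with the largest negative change among those called with 1 sign in both libraries and at least 50 CPM, up to 3 called genes of each of 16 lists, and 15 fixed genes. The members, the lists and the classes were chosen with earlier results of these data known. Some genes are not reported here. Alternatives that leave out Xist-carrying, cycling, stromal or monocyte-transcript cells were added after the data were seen.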

Additional observations from a re-analysis of the deposited data

How the results depend on the processing

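Over other macrophages, the 46 higher and 30 lower calls moved with most choices. RLE factors gave 81 and 20, DESeq2 222 and 119, no filter on low counts 471 and 278, at least 3 markers 78 and 149, 2 of 5 markers 54 and 116, microglia UMIs under 5 per 10000 51 and 60, removal of top-scoring Scrublet barcodes 55 and 12, mitochondrial UMIs at most 5% 71 and 28, cells of 3000 to 20000 UMIs 4 and 0 (689 and 531 at an unadjusted p of 0.05), the remaining cells left out 160 and 52, and Xist-carrying cells left out 5 and 0. The Mrc1-holding comparator (196 and 328 unadjusted) and the removal of cycling cells (158 and 470) gave 0 and 0. Without the library block, edgeR made 0 and 0 calls (580 and 867 unadjusted) over other macrophages and 773 higher over microglia-like cells. The cause was not tested.

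Over microglia-like cells, 2 of 5 markers gave 633 higher, cells of 3000 to 20000 UMIs 711 higher and 874 lower, and removal of cycling cells 755 and 1133. There RLE factors gave 1451 higher and 1545 lower, and DESeq2 1508 and 1401. Values that changed sign were Igfbp4 at -0.19 without cycling cells and, with stromal microglia-like barcodes left out, Col18a1 at 1.08 and Col3a1 at 2.30. The share of candidates was 0.379% and 0.253% at 3 markers, 0.346% and 0.177% at 2 of 5, and 0.877% in replicate 1 with microglia UMIs under 5. Thinned to 2000 UMIs, it was 0.148% and 0.0936% of the cells deep enough. Leaving out a library leaves no residual degrees of freedom, so it gave log2 ratios within the other library and no test. Replicate 2, with 37 candidates, limits every value.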

Other observations

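Xist-carrying cells were not confined to the candidates. In replicate 1, 72 of 146 Marco-positive cells carried Xist, at 257 CPM, with Apoe at 2794 CPM in those with Xist and 55538 CPM in those without. The 42 other macrophages with Xist in that library had 12128 CPM of Apoe, against 114692 CPM in those without, and the 31 microglia-like cells with Xist had 13519 CPM against 44268 CPM. In replicate 2, no neutrophil-transcript cell of 717 carried Xist, which allows a share of up to 0.418%.

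The Marco-positive cells were measured beside the candidates for genes the rule did not use. Their levels were 1987 and 4699 CPM for Pf4, 132 and 99.9 CPM for Igfbp4, 533 and 1673 CPM for Ccl12 and 394 and 730 CPM for Dab2, against 4081 and 4016, 140 and 75.0, 695 and 1394, and 480 and 609 CPM in the candidates. Ccl8 was at 15.7 and 6.24 CPM, against 65.8 and 93.2 CPM in the candidates. These differences were not tested, since replicate 2 held 8 Marco-positive cells.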
